A study of Mus musculus with 4 samples.

Results

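The neurons described here are nuclei of the mouse lateral septum that carried the transcripts of both Cpa6, a secreted carboxypeptidase (chromosome 1, 10324720 to 10719945, minus strand, protein coding), and Col15a1, the chain of the basement membrane collagen XV (chromosome 4, 47208161 to 47313167, plus strand, protein coding; both in GENCODE positions of mm10). They were chosen by unique molecular identifiers (UMIs, 1 for each captured transcript). A nucleus had 200 to 6000 genes, under 2% mitochondrial UMIs and at least 2000 UMIs, with at least 2 UMIs of Cpa6, at least 1 of Col15a1, at least 1 of Gad1 and Gad2 together and under 3 of the oligodendrocyte gene St18. The rule kept 625 of the 48940 nuclei that passed the limits on genes, mitochondrial UMIs and total UMIs. In the nomenclature of the study the pair of markers points to the cluster LSN2 of lateral septum neurons (LSNs), but the rule used no cluster and no deposited annotation.

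The lateral septum is a forebrain nucleus built almost wholly of GABAergic projection neurons, which receive dense hippocampal input and project to the hypothalamus and midbrain. It is known for its part in fear, social and feeding behavior and holds many peptide and hormone receptors. Carboxypeptidases trim the C-terminal residues of peptides, and collagens VI, XV and XXIII belong to the matrix at cell surfaces, so the genes that name these neurons act at or outside the cell membrane.

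Single-nucleus RNA sequencing was run on 4 libraries, each of the lateral septum of 3 pooled male mice of 6 to 8 weeks: 2 of C57J mice, 1 of BALB/c mice and 1 of nude mice, which lack Foxn1 on a BALB/c background and have no thymus. The tissue was dissected by hand and frozen. The first C57J library was made in batch 1 and the other 3 libraries in batch 2, so nude and BALB/c were each measured once and without a replicate. The rule kept 175 and 155 nuclei of the 2 C57J libraries, and 172 (nude) and 123 (BALB/c) of the others. Wherever 4 values stand together they belong to C57J 1, C57J 2, nude and BALB/c, in that order.

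The BALB/c library stood apart in depth. The median selected nucleus had 11574, 10103, 10106.5 and 17276 UMIs, and no selected BALB/c nucleus had under 9359 UMIs. The rule asks for UMIs of both genes, and the selected nuclei were deeper than the comparison classes of each library, with medians of 9448, 7828, 8146 and 14206 UMIs in neurons with only Cpa6, 9797, 8239, 8001 and 12987 with only Col15a1 and 8205, 6730, 6605.5 and 12653 in the other Trpc4 neurons. Summed over the selected nuclei, the libraries gave 2155423, 1729062, 1917598 and 2169166 UMIs, so the selected sums differed little in depth between libraries. The comparison classes held more nuclei in every library, and their sums were not matched in depth to the selected sums. Between 29 and 63 cell barcodes were shared by any pair of libraries, at most 0.478% of the smaller one. A doublet score marked between 14.6% (BALB/c) and 20.6% (C57J 2) of the selected nuclei, against 9.66% to 11.9% of all scored nuclei. The neurons with only Cpa6 (13.1% to 19.9%) or only Col15a1 (10.8% to 21.3%), described below as comparison classes, were marked about as often, and the other Trpc4 neurons, the third class, less often in every library (14.2%, 13.6%, 15.0% and 10.3%). A droplet with a Cpa6 neuron and a Col15a1 neuron would meet the rule, and each count of called genes was repeated without the marked nuclei.

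The selected nuclei had the profile of lateral septum neurons. Trpc4, a cation channel that the study used as the mark of LSNs, had at least 2 UMIs in 94.9%, 95.5%, 96.5% and 94.3% of the selected nuclei. Elavl2, used for the medial septum, stood at 64.0, 66.5, 75.1 and 113 CPM (the count of its UMIs over all UMIs of the summed nuclei, scaled to 1e6), below the other Trpc4 neurons of the same library each time. The cholinergic transporter gene Slc18a3 had no UMI in any of the 4 sums, and the 3 cholinergic markers together reached 3.23 to 10.7 CPM with Slc5a7 as the most abundant. The 2 ependymal markers together reached at most 0.928 CPM, and both were at 0 in nude and BALB/c.

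UMIs found in glial nuclei, whose source was not tested, limited 2 of the marks. Gad1 reached 178 to 220 CPM in the selected neurons, but also 94.7 to 181 CPM in nuclei chosen as oligodendrocytes and 101 to 171 CPM in nuclei chosen as astrocytes, which do not make GABA. A single UMI of Gad1 or Gad2 is therefore weak evidence of a GABAergic nucleus. The glutamatergic gene Slc17a6 stood at 14.4, 5.21, 11.5 and 22.6 CPM, against 12.5 to 18.1 CPM in oligodendrocytes, so that only BALB/c was above them. Slc17a6 was also called higher than in the other Trpc4 neurons by the test described below (log2 fold change 0.82). Oligodendrocyte markers summed to 220 to 328 CPM, and astrocyte markers to 61.3 to 105 CPM, led by Slc1a3, and both sums were lower than in the other Trpc4 neurons of the same library.

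The genes that chose the nuclei are given as a description, without a test. Cpa6 was at 709, 797, 579 and 474 CPM, so that BALB/c was lowest. Col15a1 was at 124, 141, 151 and 117 CPM. In nuclei chosen as oligodendrocytes, Cpa6 stood at 6.14 to 32.6 CPM and Col15a1 at 1.58 to 7.52 CPM, from a source that was not tested. Cpa6 was well above its threshold in most members, since 402 of the 625 nuclei (64.3%) had 4 or more UMIs and the median was 5. Col15a1 was not, since 371 nuclei (59.4%) passed on exactly 1 UMI.

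The same limit applies outside the rule. In C57J 1 alone, 423 nuclei had 1 UMI of Col15a1 and none of Cpa6, 50 had 1 of each, and 189 had 2 of Cpa6 and none of Col15a1, while 24 nuclei sat just inside the rule with 2 and 1. A neuron with a missed UMI of either gene falls into a comparison group. The nuclei with the pair of genes but 3 or more St18 UMIs numbered 19, 11, 22 and 22, and the limit of 6000 genes removed 5, 0, 1 and 12, so that it took more nuclei from the deeper BALB/c library.

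**Figure D1:**
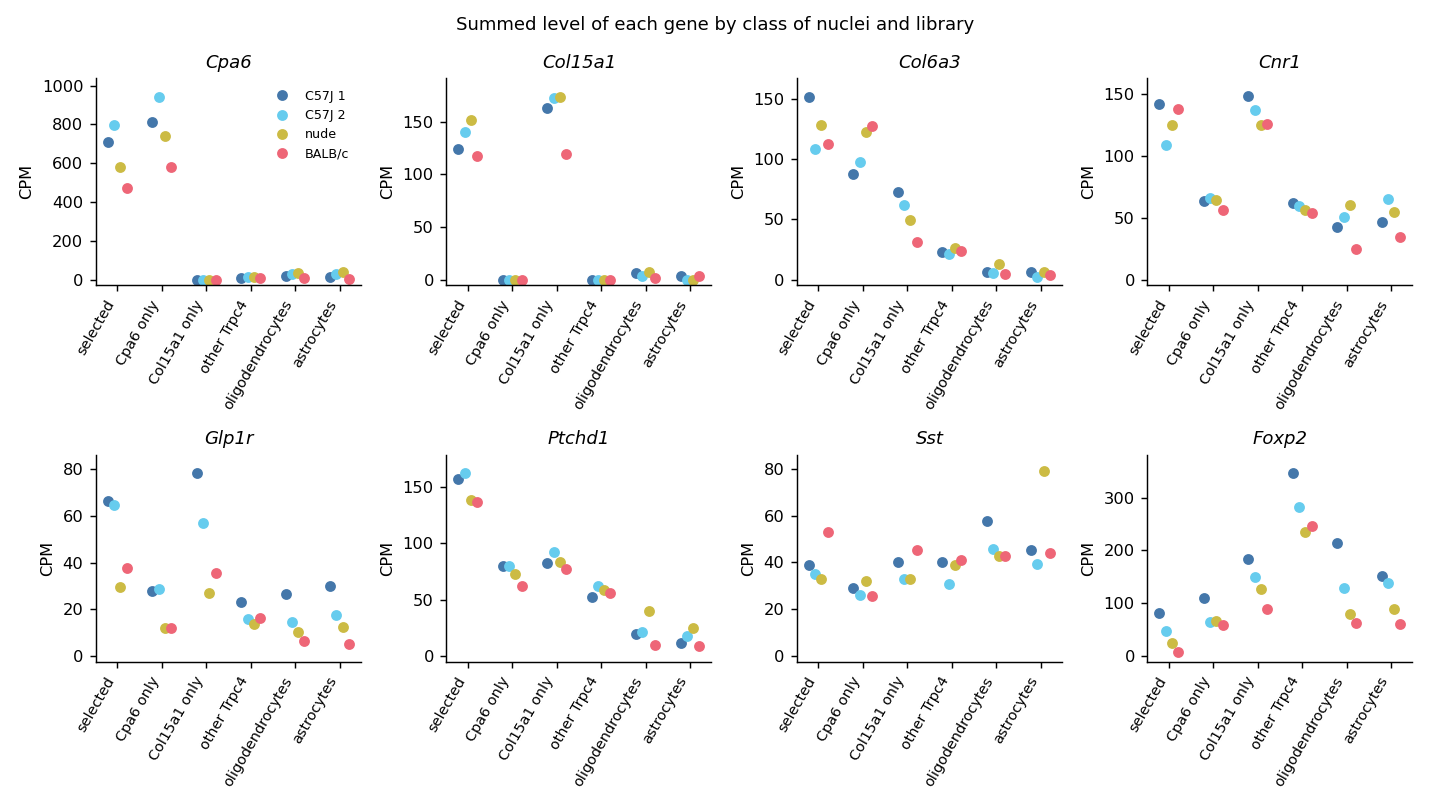
Level of 8 genes in CPM (y axis, linear from 0) in the selected neurons, in 3 comparison classes of neurons and in 2 glial classes (x axis), with 1 point for each library. Cpa6 and Col15a1 were part of the rule, Ptchd1 was highest in the selected neurons of every library, and Sst was no higher there than in glia except in BALB/c.

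The selected neurons made up 1.29% of the passing nuclei in C57J 1 (175 of 13581, 95% Clopper-Pearson interval 1.11% to 1.49%), 1.39% in C57J 2 (155 of 11191, 1.18% to 1.62%), 1.40% in nude (172 of 12251, 1.20% to 1.63%) and 1.03% in BALB/c (123 of 11917, 0.859% to 1.23%). BALB/c was the lowest of the 4, by 0.37 on the log2 scale below the mean of the C57J libraries, and nude was 0.07 above it. The intervals cover counting error only and that of BALB/c overlapped those of the other 3 libraries. With 1 library each of nude and BALB/c there is no test of the difference.

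The distance of BALB/c from C57J depended on what was counted. Of Trpc4 neurons, the selected neurons were 2.63%, 2.81%, 2.52% and 2.30%, with all 4 intervals overlapping. Under a stricter rule, with 3 UMIs of Cpa6 and 2 of Col15a1, the shares were 0.412%, 0.429%, 0.384% and 0.403%, and no library stood apart. That rule counts raw UMIs, so the deeper BALB/c library was not matched in depth to the others. Under a looser rule, with 1 UMI of each gene, the shares were 1.81%, 1.94%, 2.21% and 1.33%, and the interval of BALB/c (1.13% to 1.55%) lay below those of the other 3 libraries, with BALB/c 0.50 below C57J on the log2 scale. When every nucleus was first thinned to 2000 UMIs, which all passing nuclei reached, 20, 15, 8 and 4 nuclei met the rule. These are 0.147%, 0.134%, 0.0653% and 0.0336%, so both libraries of the BALB/c background were then below both C57J libraries. The interval of nude (0.0282% to 0.129%) overlapped those of both C57J libraries, however. That of BALB/c (0.00915% to 0.0859%) overlapped that of C57J 2 (0.0750% to 0.221%) and lay just below that of C57J 1 (0.0900% to 0.227%). Whether fewer such neurons or less of the 2 transcripts in each gave these shares cannot be told apart here.

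**Figure D2:**
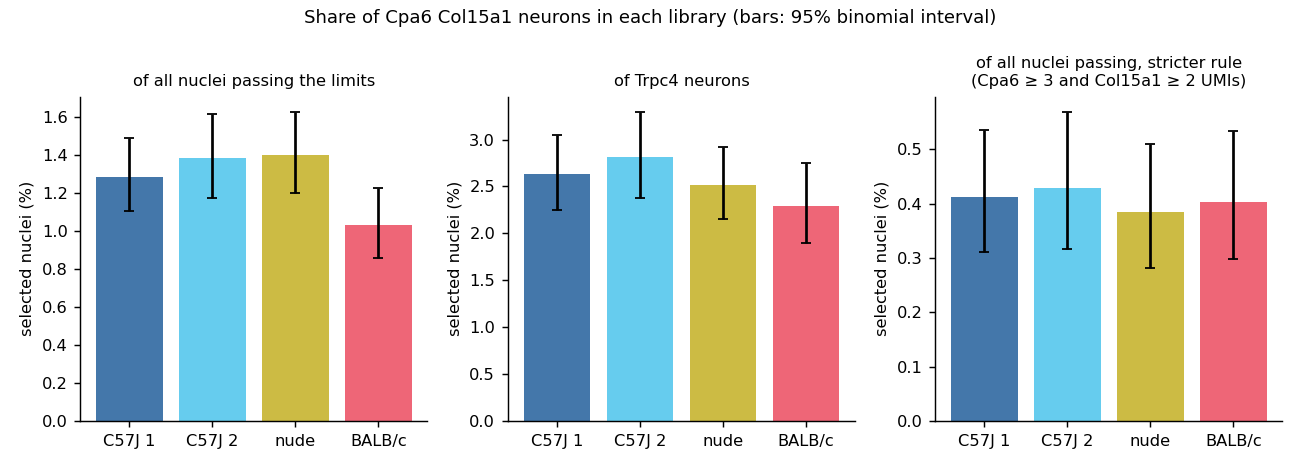
Share of selected nuclei in percent (y axis, from 0) in each of the 4 libraries (x axis) under 3 definitions, with bars for the 95% binomial interval of the counts. BALB/c was lowest among all nuclei (1.03%), and the libraries were within 0.384% to 0.429% under the stricter rule. All 3 definitions count raw UMIs, without matching the libraries in depth.

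Which genes set the selected neurons apart was asked against 3 classes of the same libraries, defined by the same limits: 17413 other Trpc4 neurons with no Col15a1 UMI and at most 1 of Cpa6, 3576 Cpa6-only neurons and 2155 Col15a1-only neurons. UMIs were summed for each class and library and fitted in edgeR with the library as a block. The threshold for a called gene was 0.05 for the p adjusted by Benjamini and Hochberg over all genes tested, with a log2 fold change beyond 0.5 in either direction. The genes of the rule and Trpc4 were not tested. The selected sums enter all 3 comparisons. The spread between the 4 libraries mixes pools of mice with background, genotype and batch.

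Against the other Trpc4 neurons, 798 of 16069 genes were called higher (4.97%) and 937 lower (5.83%). The largest rise among the genes named by rule was that of Pik3c2g, a class II phosphoinositide 3-kinase, which was at 51.0, 40.5, 28.7 and 27.7 CPM. In the other Trpc4 neurons it was at 1.39, 1.62, 2.19 and 0.721 CPM, so the classes did not overlap (log2 fold change 4.76 ± 0.21 SE, edgeR adjusted p 5.7e-15). Mctp2, a calcium-binding membrane protein, followed at 3.17 ± 0.12, with 55.3 to 78.9 CPM against 5.67 to 8.55 CPM. Slc26a4, the anion exchanger pendrin, rose by 2.83 and Matn2, the matrix protein matrilin-2, by 2.78. The rule for the largest rises and falls kept only genes of the same direction in every library, so that agreement is no further evidence.

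The 10 largest rises also held Ntf3, Fgf10, Lamp5, Kcng3 and Adam18. Ntf3, which encodes neurotrophin-3, was at 55.7, 68.2, 68.8 and 74.7 CPM against 17.0, 15.9, 14.2 and 9.28 CPM (log2 fold change 2.35 ± 0.14). Fgf10, a fibroblast growth factor, was at 12.4 to 48.6 CPM against 4.60 to 6.08 CPM (2.39 ± 0.19). Lamp5, a membrane protein of GABAergic synapses, rose by 2.35 and Kcng3, a modifier subunit of voltage-gated potassium channels, by 2.40. Adam18, of the ADAM family, rose by 2.49, but was at 39.4 and 50.3 CPM in the C57J selected neurons and at 8.87 and 7.38 CPM in nude and BALB/c.

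The 10 largest falls held genes of varied roles. Foxp2, a forkhead transcription factor, was at 82.1, 46.8, 24.5 and 6.92 CPM in the selected neurons against 346, 282, 234 and 247 CPM in the other Trpc4 neurons (log2 fold change -2.78 ± 0.18). Eya4, a transcriptional coactivator, fell by 2.84 and Adarb2, of the RNA-editing deaminase family, by 2.36. Kcnmb2, a subunit of calcium-activated potassium channels, fell by 2.55. Cadps2, which primes dense-core vesicles, fell by 2.24 and Cacna2d3, an auxiliary calcium channel subunit, by 2.35. Sfta3-ps, Ptprm, Pde1c and Stac made up the 10, with log2 fold changes from -2.50 to -2.16.

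**Figure D3:**
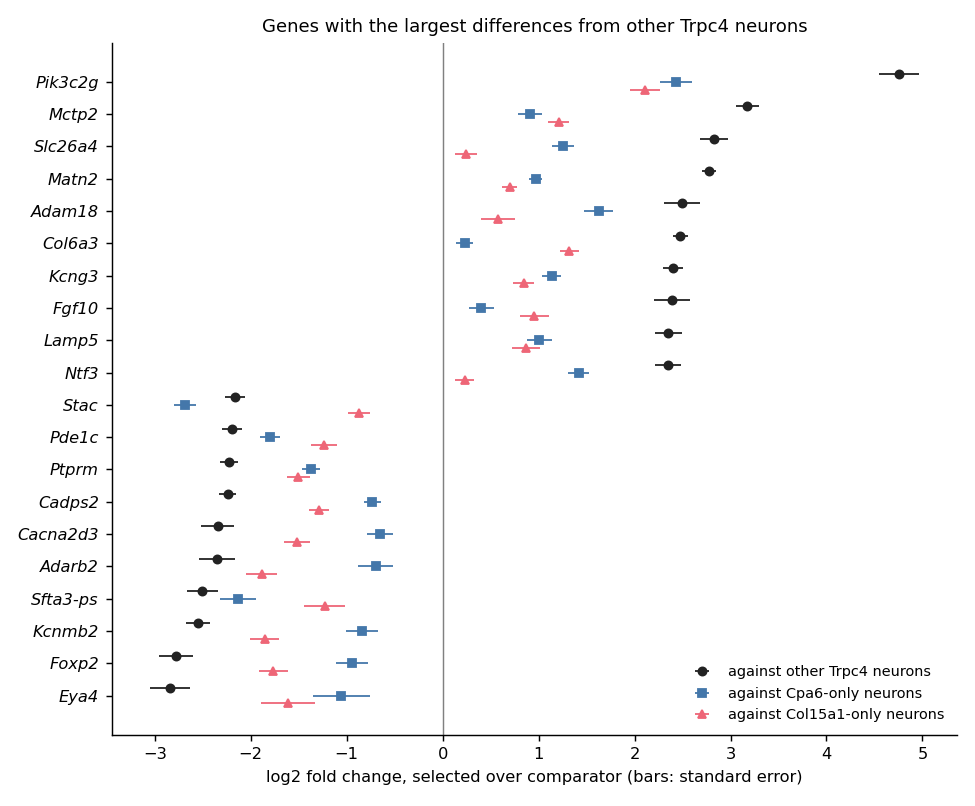
Log2 fold change of the selected neurons over each of 3 comparison classes (x axis, bars for the standard error) for the 10 largest rises and 10 largest falls against the other Trpc4 neurons (y axis). Pik3c2g lay far to the right of 0 against every class (4.76, 2.43 and 2.11), whereas Col6a3 lay near 0 against the Cpa6-only neurons.

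Of the collagen and matrix genes, 55 of 58 could be tested against the other Trpc4 neurons, of which 14 were called higher and 13 lower. The median over these genes was -0.20, and -0.02 over all genes tested. For this and each group below, the share over all genes tested was 4.97% called higher and 5.83% lower. Groups with 1 gene called higher had 4.17% to 5.26% of their members there, near that share. Col6a3, a chain of collagen VI that the study names with Cpa6 and Col15a1 for LSN2, was at 152, 109, 129 and 113 CPM against 21.3 to 26.6 CPM (log2 fold change 2.48 ± 0.08). It had at least 1 UMI in 62.4% of the 625 nuclei. Col23a1, a transmembrane collagen, rose by 2.25 with 152 to 279 CPM, and Col5a1 rose by 2.49 from a low level of 1.19 to 1.77 CPM. Nid2, a nidogen of basement membranes, rose by 2.26. Other collagens went the other way, as Col11a1 fell by 2.05, Col4a5 by 1.86 and Col18a1, which with collagen XV forms the multiplexin family, by 1.74.

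Of 71 transcription factors tested of a list of 74, 8 were called higher and 25 lower (median log2 fold change -0.39). Zeb2, a zinc finger repressor, was at 461, 452, 488 and 381 CPM against 107, 119, 116 and 85.7 CPM, which gave 2.13 ± 0.05. Nfib and Nfix, of the nuclear factor I family, rose by 1.83 and 1.41. Besides Foxp2, Ebf1 (-2.63), Pax6 (-2.04) and Lhx8 (-1.87), a factor of cholinergic and ventral forebrain neurons, were called lower. The selected neurons were thus high in Zeb2 and nuclear factor I and low in Foxp2 in all 4 libraries.

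The bases upstream of 3 genes that mark the selected neurons are shown because Zeb2 and nuclear factor I rose with them: Col15a1, which the rule used, and Col6a3 and Epha3, which were called higher. They are the 250 bases before the RefSeq start site in GRCm38.p6, 5′ to 3′ on the strand of the gene: chr4:47207762-47208011 (plus) for Col15a1, chr1:90843972-90844221 (minus) for Col6a3 and chr16:63864176-63864425 (minus) for Epha3. Searched were CACCTG or its reverse complement CAGGTG, the E-box bound by zinc finger repressors such as Zeb2, and TTGGC or GCCAA, the nuclear factor I binding sequence, and capitals mark a match.
Col15a1: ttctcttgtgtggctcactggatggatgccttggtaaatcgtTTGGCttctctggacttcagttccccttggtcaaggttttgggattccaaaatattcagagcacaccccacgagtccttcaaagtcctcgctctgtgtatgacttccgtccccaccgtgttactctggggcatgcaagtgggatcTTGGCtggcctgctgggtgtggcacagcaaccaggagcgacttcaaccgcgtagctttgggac
Col6a3: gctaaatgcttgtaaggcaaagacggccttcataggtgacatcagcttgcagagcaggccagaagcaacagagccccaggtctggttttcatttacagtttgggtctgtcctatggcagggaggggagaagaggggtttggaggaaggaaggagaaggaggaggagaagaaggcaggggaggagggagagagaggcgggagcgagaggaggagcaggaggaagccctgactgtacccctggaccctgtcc
Epha3: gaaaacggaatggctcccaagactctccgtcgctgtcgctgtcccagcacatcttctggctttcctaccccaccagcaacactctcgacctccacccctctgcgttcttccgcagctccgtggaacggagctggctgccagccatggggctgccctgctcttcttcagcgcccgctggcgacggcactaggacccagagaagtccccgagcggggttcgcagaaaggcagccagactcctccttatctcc
The nuclear factor I sequence was found 2 times before Col15a1, and not before Col6a3 or Epha3. The letters of the E-box were in none of the 3 windows. Of the 32851 promoters searched on both strands over the same length, 17.22% held the E-box and 41.51% the nuclear factor I sequence. A match is a description of the letters, not of binding.

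Guidance and adhesion genes were widely changed. Of the 79 tested, 15 were called higher and 33 lower (median log2 fold change -0.39). Epha3, an ephrin receptor, was at 778, 831, 628 and 476 CPM against 138, 160, 152 and 111 CPM (2.33 ± 0.06). Unc5b, a netrin receptor, rose by 1.86, Epha6 by 1.27 and Cdh8, a cadherin, by 1.22. Of the secreted cues, Sema3a fell by 2.12, Ntn1, which encodes netrin-1, by 2.02 and Slit2 by 1.56, whereas Slit1 and Slit3 were called higher. Epha8 fell by 1.59, so both families moved in both directions.

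Of a list of 34 genes of neuropeptides, granins and other secreted signals, 24 were tested, 1 was called higher and 10 lower (median log2 fold change -0.70). The list does not hold Ntf3 and Fgf10, which rose as given above. Pdyn, the precursor of dynorphin, was the one that rose, at 4.69 to 8.35 CPM against 1.70 to 4.75 CPM (1.38 ± 0.28). Nts, the precursor of neurotensin, was at 12.1, 10.4, 9.91 and 14.3 CPM against 28.8 to 39.6 CPM and fell by 1.46, as did Npy, and Igf1 fell by 1.67. Gal, the precursor of galanin, had 1 UMI in all 625 nuclei. Sst, the precursor of somatostatin, was at 39.0, 35.3, 32.9 and 53.0 CPM and was not called against the other Trpc4 neurons (log2 fold change 0.15, edgeR adjusted p 0.32).

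Somatostatin needs its level in glial nuclei beside it. Thinned to 2000 UMIs, 9.71%, 7.10%, 3.49% and 15.4% of the selected nuclei had an Sst UMI, and before thinning 37.1%, 28.4%, 26.7% and 39.0%. Oligodendrocytes, which do not express Sst, reached 12.8%, 8.45%, 9.85% and 9.43% after thinning, at median depths of 2989, 2817, 2569 and 4121.5 UMIs. After thinning, the share in the selected neurons was thus at or below that of oligodendrocytes in C57J 1, C57J 2 and nude. In BALB/c the interval of 9.56% to 23.1% overlapped that of oligodendrocytes. The selected nuclei were deeper, with medians of 10103 to 17276 UMIs. Free RNA in like amounts per droplet would make up less of their UMIs, so the comparison cannot decide whether they express Sst.

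Peptide and hormone receptors included 10 genes called higher and 8 lower of 49 tested (median log2 fold change 0.01). Glp1r, the receptor of glucagon-like peptide 1, was at 66.3, 64.8, 29.7 and 37.8 CPM against 23.0, 15.9, 13.5 and 16.3 CPM (1.57 ± 0.12, edgeR adjusted p 2.4e-10). Mc4r, a melanocortin receptor, rose by 1.23, Gipr by 1.19 and Npffr1, a receptor of RFamide peptides, by 1.15, although Mc4r did not exceed 2.78 CPM. Called lower were Pth2r (-3.08), the kappa opioid receptor gene Oprk1 (-2.15), Crhr2 (-1.86) and Galr1 (-1.85).

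Of the monoamine, acetylcholine and cannabinoid receptor genes, 4 of 33 tested were called higher and 7 lower (median log2 fold change 0.01). Hrh1, a histamine receptor, was at 19.3 to 33.0 CPM against 6.74 to 8.69 CPM (1.73 ± 0.16), and the serotonin receptor gene Htr1b rose by 1.54. Cnr1, the cannabinoid receptor, was at 142, 109, 125 and 138 CPM against 54.1 to 62.4 CPM (1.23 ± 0.07), and the muscarinic receptor gene Chrm3 rose by 0.64. Adra1a fell by 2.08, the dopamine receptor gene Drd3 by 2.08, Chrm2 by 0.93 and Htr2a by 0.83.

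These receptors were above their level in glial nuclei to different degrees. After thinning, 20.3% to 25.2% of the selected nuclei had a Cnr1 UMI (63.9% to 68.0% before), against 4.15% to 10.6% of oligodendrocytes and 6.39% to 12.8% of astrocytes. Glp1r was found in 12.6%, 12.3%, 4.65% and 4.88% of the selected nuclei (38.9%, 42.6%, 20.9% and 30.9% before), against 5.98%, 3.55%, 4.40% and 0.799% of astrocytes. In nude its share was therefore near that of astrocytes. Ptchd1, a transmembrane protein linked to learning, was found in 22.1% to 26.8% (65.1% to 72.0% before), against at most 6.59% in either glial class.

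Ion channels and receptors of fast transmission moved in both directions. Of 24 glutamate receptor genes tested, 4 were called higher and 3 lower (median 0.10). Grik4 rose by 1.02, Grin2a by 0.84 and Grid1 by 0.52, while Grik1 fell by 1.29, Grin3a by 1.22 and Grm3 by 0.78. Of 23 GABA and glycine genes, 1 was higher and 6 lower (median -0.15). Gabbr2 was the one that rose, by 0.73, and Glra3 fell by 1.66, Gabrq by 1.69 and Gabra3 by 1.01. Gabre had no UMI in the selected neurons and 1.69 to 2.16 CPM in the others, at least 4.98-fold lower when 3 UMIs over the 4 libraries are taken as the floor.

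Potassium channel genes were more often lower, with 15 called lower of 54 tested against 5 higher (median -0.21). That list of 57 does not hold Kcng3, given above. Kcnh3 rose by 1.81, Kcnd3 by 0.74 and the inward rectifiers Kcnj3 and Kcnj6 by 0.57 and 0.54, while Kcnip4, a subunit of transient potassium channels, fell by 1.13, Kcnk3 by 1.39 and Kcnc4 by 1.05. Of the sodium, calcium, HCN and TRP channel genes, 6 of 39 were higher and 7 lower (median 0.07). Trpm3 was at 5122, 5232, 4439 and 3687 CPM against 1397 to 1930 CPM (1.497 ± 0.043), Scn9a rose by 1.47, Cacnb2 by 1.05 and Cacng4 by 0.91. Cacna1i fell by 1.24 and Cacna1c by 0.99.

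Smaller groups completed the comparison. Of 19 peptide-processing genes, Pcsk2 rose by 0.52, and Mme, Pcsk1, Pam and Cpq fell by 1.05, 0.97, 0.87 and 0.55 (median -0.14). Of 12 genes of calcium binding proteins and interneuron markers, 4 rose and 4 fell (median -0.23): Lamp5, Ndnf by 2.34, Reln by 1.20 and Hpca by 0.70 were higher, and Npy, Calb1 by 1.38, Hpcal1 by 1.15 and Nos1 by 0.59 were lower. No immediate early gene of 20 was called higher and 5 were lower (median -0.40), with Arc at 6.26 to 13.4 CPM against 11.4 to 21.6 CPM, and Egr2, Npas4 and Junb falling by 1.70, 0.83 and 0.57. Actinomycin D, which blocks transcription, was in the buffer of the nuclei.

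**Figure D4:**
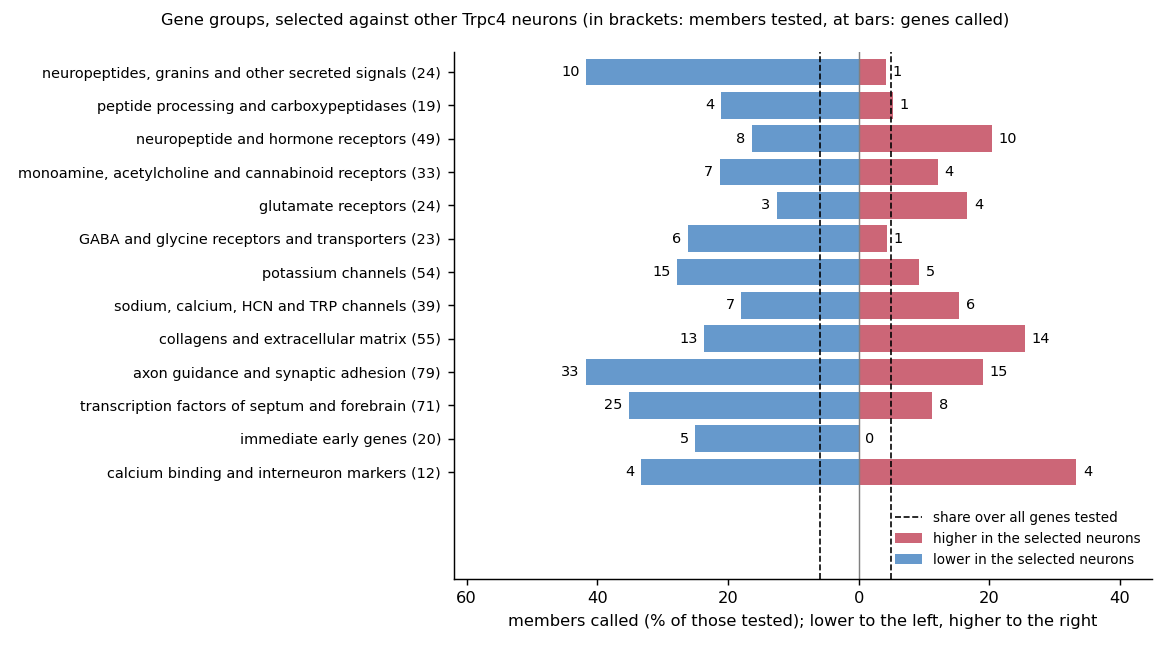
Share of tested members called lower (left) and higher (right) in the selected neurons against the other Trpc4 neurons, in percent (x axis), for 13 gene groups (y axis), with dashed lines for the shares over all genes tested (5.83% and 4.97%). Matrix genes were called in both directions (14 and 13), and peptides and guidance genes more often lower (10 and 33) than higher (1 and 15).

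Markers that the study names for other LSN clusters bear on how cleanly the rule picked 1 kind of neuron. They were taken from clusters of these same libraries, so their direction is no independent evidence. Chat, a cholinergic gene, fell by 3.13 and Ddr2, given for LSN5, by 1.58. Of the pair of LSN15, Esr1, the estrogen receptor alpha gene, fell by 1.45 and Otx2os1 was not called (0.05). Dach2 (-1.57), Grid2ip (-1.11), Chga (-0.69) and Etv1 (-0.56) were called lower, as were Foxp2, Pth2r, Crhr2, Nts and Sema3a, given above. Sall3 of LSN3, Met of LSN5 and Calcr of LSN11 were not called (0.07, -0.50 and 0.08). Of the 12 genes tied by the study to LSN2 or to fear and memory, Col6a3, Glp1r, Ptchd1, Cnr1 and Synpo rose, and Ddr2 and Tafa2 fell, the last by 0.82.

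Against the Cpa6-only neurons, 409 of 13275 genes were called higher (3.08%) and 470 lower (3.54%), and without the library block 466 in all. Hmcn1, the extracellular protein hemicentin-1, led with 34.8, 59.0, 33.4 and 33.2 CPM against 4.00, 6.38, 4.62 and 1.95 CPM (log2 fold change 3.28 ± 0.16, edgeR adjusted p 2e-17). Pik3c2g rose by 2.43, Phex, a membrane endopeptidase, by 1.91, Hrh1 by 1.90, Adam18 by 1.63 and Sv2b, a synaptic vesicle protein, by 1.43. Ntf3, Epha3, Pros1 and Phf21b rose by 1.42, 1.40, 1.40 and 1.37. Glp1r, Cnr1 and Ptchd1 were higher here too, by 1.36, 1.07 and 1.03, with no overlap within a library.

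Genes of the Cpa6-only neurons were much lower in the selected neurons. Lama3, a laminin chain, was at 8.35, 18.5, 18.2 and 13.4 CPM against 58.7, 81.3, 122 and 128 CPM (-2.75 ± 0.12). Next came Stac (-2.68), the transcriptional cofactor Dach2 (-2.64), Qrfprl (-2.30), Stac2 (-2.20) and the glypican Gpc3 (-2.09). Atp10a, Sfta3-ps, Grid2ip and Slc12a8 closed the 10 with -2.14 to -1.996. Of the markers the study names for other clusters, Crhr2 (-2.26), Met (-1.35) and Sall3 (-1.04) fell. Col6a3 was not called (0.23, edgeR adjusted p 0.086) and neither was Otx2os1 (0.05 ± 0.13).

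By group, against the Cpa6-only neurons, 9 of 19 immediate early genes were called lower and 0 higher, led by Egr2 (-1.46), Npas4 (-1.19), Arc (-1.03) and Junb (-0.80). Guidance genes counted 7 higher and 22 lower of 76, matrix genes 6 and 9 of 44, transcription factors 4 and 14 of 62, and potassium channels 1 and 11 of 47. The shares over all genes tested were 3.08% higher and 3.54% lower, so 1 potassium channel gene higher (2.13%) lay near that share. Nfib, Zeb2, Nfix and Meis2 were the 4 factors that rose, by 0.95, 0.78, 0.64 and 0.56. Among peptides, Sst and Pdyn rose by 0.53 and 1.34 and Nts and Tac1 fell by 0.65 and 0.69, where the Sst level is subject to the glial background given above.

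Against the Col15a1-only neurons, 194 of 12356 genes were called higher (1.57%) and 384 lower (3.11%), and without the library block 236 in all. Pappa, a protease that cleaves binding proteins of insulin-like growth factors, led with 45.9, 30.1, 72.5 and 48.4 CPM against 5.96, 8.47, 13.9 and 15.0 CPM (2.24 ± 0.15, edgeR adjusted p 1.5e-12). Pik3c2g rose by 2.11, Col23a1 by 1.59, Col6a3 by 1.32, Sphkap, an anchor of protein kinase A, by 1.21 and Mctp2 by 1.21. Phex, Gpr83, Wls and Sytl5 rose by 1.20, 1.17, 1.13 and 1.12. Ptchd1 and Sall3 were higher by 0.89 and 0.93.

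Lower than in the Col15a1-only neurons were Adarb2 (-1.89), Kcnmb2 (-1.85), Foxp2 (-1.76), Ntn1 (-1.59) and Cacna2d3 (-1.52), with Ptprm, Adra1a, Samd5, Vwa5b1 and Kitl between -1.51 and -1.42. Met fell by 1.10. Cnr1 (0.00 ± 0.07) and Glp1r (0.06 ± 0.10) were not called, and their levels, 109 to 142 CPM against 125 to 149 CPM and 29.7 to 66.3 CPM against 26.9 to 78.4 CPM, overlapped. Guidance genes counted 7 higher and 17 lower of 75, transcription factors 4 and 16 of 59, matrix genes 5 and 9 of 40, and immediate early genes 0 and 1 of 17. The shares over all genes tested were 1.57% higher and 3.11% lower.

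Set side by side, Pik3c2g was at 27.7 to 51.0 CPM in the selected neurons, at 2.13 to 10.9 CPM in the Cpa6-only and at 4.60 to 13.2 CPM in the Col15a1-only neurons. Epha3 was at 476 to 831, 142 to 352 and 238 to 500 CPM, and Ptchd1 at 136 to 162, 62.5 to 80.1 and 77.6 to 92.2 CPM. In each library these 3 genes were above both classes that carry only 1 of the pair. With the predicted doublets removed, 935 genes were called against the Cpa6-only and 605 against the Col15a1-only neurons.

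Whether the selected neurons differ between mouse backgrounds was asked by comparing the nude and BALB/c libraries together with the C57J libraries. Of 11297 genes tested in edgeR, 55 were called higher (0.487%) and 65 lower (0.575%) in the BALB/c background, and 28 of these 120 were predicted genes without a function. Groups of 2 libraries that did not overlap were common, at 20.1% of genes higher and 19.8% lower. Within batch 2, where 1 C57J library is left, 150 genes were called, 83 of them among the 120, on the assumption that this lone library varies like those of nude and BALB/c. Without nude 289 genes were called, DESeq2 called 42, and 9 were left after thinning to 2000 UMIs. C57J 1, the only library of batch 1, shares its genotype with C57J 2 and no other library, so batch and background are in part confounded.

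Of the 10 largest rises, 5 were the genes Cfap54, Dnah7a, Dnah6, Cfap61 and Cfap46, whose products are known from motile cilia and flagella. They were grouped after their values were seen, and no list of cilium genes was tested. Cfap54 was at 85.8, 99.5, 311 and 302 CPM (log2 fold change 1.72 ± 0.12). Dnah7a, a dynein heavy chain, was at 11.6 and 12.1 CPM against 65.7 and 45.2 CPM (2.21 ± 0.27). Dnah6, Cfap61 and Cfap46 rose by 2.08, 1.80 and 1.69. The other Trpc4 neurons were higher in the BALB/c background too, as in Cfap54 with 71.4 and 77.6 CPM against 258 and 253 CPM, and so were glia, with Cfap54 at 56.7, 50.3, 195 and 145 CPM in astrocytes and at 15.8, 16.3, 62.7 and 40.4 CPM in oligodendrocytes, and Dnah7a at 6.54, 6.56, 36.6 and 26.8 CPM in astrocytes. The part of free RNA in these rises was not tested, and none of the 5 was called for a difference between the classes. The 2 ependymal markers were at 0 in the selected neurons of nude and BALB/c, and the part of ependymal RNA in these rises was not tested.

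Fbn2, a fibrillin of extracellular microfibrils, was at 20.4 and 17.4 CPM in C57J 1 and C57J 2, 148 in nude and 154 in BALB/c (2.98 ± 0.16, edgeR adjusted p 1.5e-06). Zfp808, a zinc finger gene, rose by 3.11, Gzmk, a granzyme, by 2.14 and Zfp951 by 1.53. The rises were alike in nude and BALB/c. The rule for named genes kept only those whose backgrounds did not overlap, so the lack of overlap is no further evidence. Col6a6, from the matrix list, rose by 3.06 but rested on 4 and 1 UMIs in the C57J libraries against 20 and 26.

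The largest falls were Muc3a, a mucin gene, from 25.5 and 26.0 CPM to 2.09 and 2.31 CPM (log2 fold change -3.52 ± 0.38), and Fggy, a carbohydrate kinase gene, from 39.4 and 48.6 CPM to 5.74 and 4.61 CPM (-3.09 ± 0.30). Mid1 fell by 2.52, Adam18 by 2.47, Arhgap25 by 2.24 and Foxp2 by 2.09, and Baiap3, Abcb10, Galnt10 and Ror1 by 1.60 to 1.38. The Foxp2 call was lost with DESeq2, after thinning (edgeR adjusted p 0.12) and without the predicted doublets (edgeR adjusted p 0.27). Adam18 was also called higher in the selected neurons than in the other Trpc4 and the Cpa6-only neurons, as given above, and, by a smaller margin, than in the Col15a1-only neurons (0.58 ± 0.18, edgeR adjusted p 0.031).

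Among the genes of neuronal signaling, Glp1r fell by 0.96 ± 0.18 (edgeR adjusted p 0.022), from 66.3, 64.8, 29.7 and 37.8 CPM. Nuclei chosen as astrocytes had most Glp1r in C57J 1 and 17.5, 12.2 and 5.24 CPM in C57J 2, nude and BALB/c. Their level thus moved the same way, and the part of free RNA in the difference was not tested. The Glp1r call was lost with DESeq2 (adjusted p 0.14), after thinning (edgeR adjusted p 0.20) and under the stricter rule (edgeR adjusted p 0.39). Htr1f, a serotonin receptor gene, rose by 0.69 and Gabra2, a GABA receptor subunit, fell by 0.50. Tafa2, a secreted protein tied to memory, rose by 0.58 and Otx2os1 by 1.10. None of these 4 calls held with DESeq2, that of Gabra2 by its fold change alone. Cnr1 (0.05), Ptchd1 (-0.22), Col6a3 (-0.13) and Sst (0.20) were not called.

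By group, guidance genes counted 3 higher (Cntn4 by 0.79, Pcdh10 by 0.74 and Ephb1 by 0.60) and 3 lower (Pcdh9 by 0.93, Cdh12 by 0.62 and Cdh18 by 0.53) of 74 tested. Pcdh9, a protocadherin, was at 4572, 4159, 2515 and 2084 CPM. Of the 42 potassium channel genes, 22 glutamate receptor genes, 37 sodium, calcium, HCN and TRP channel genes, 15 immediate early genes, 12 peptide genes, 16 peptide-processing genes and 10 interneuron markers tested, 0 were called by edgeR. Over all genes tested only 0.487% were called higher and 0.575% lower, so 0 calls in these groups lies near that share and is no result about them. In the whole comparison, 1185 genes had an unadjusted p below 0.05.

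**Figure D5:**
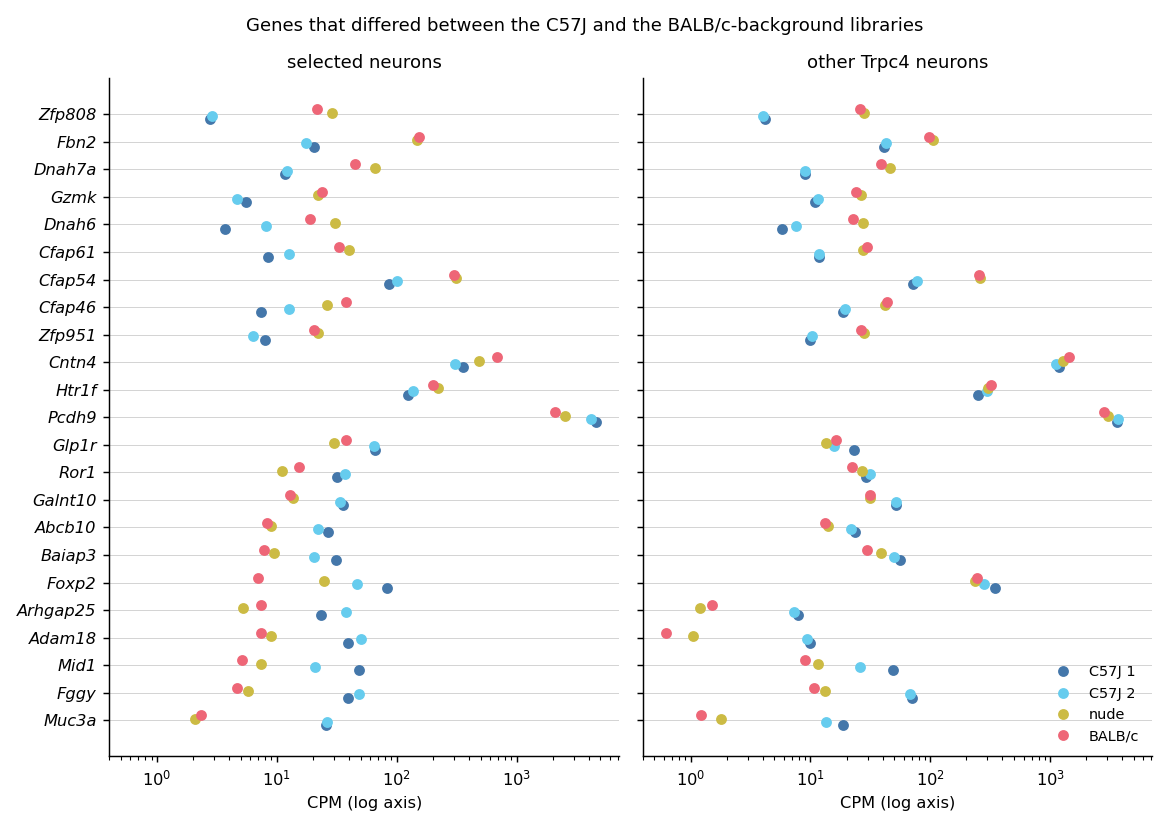
Level in CPM (x axis, log scale) of the largest rises and falls described here between the C57J and the BALB/c-background libraries and of 4 signaling and adhesion genes (y axis), in the selected neurons (left) and the other Trpc4 neurons (right), with 1 point for each library. Cfap54 was shifted in both classes, and Foxp2 fell to 6.92 CPM in the selected neurons of BALB/c while the other Trpc4 neurons had 234 CPM or more.

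For 21 of 17089 genes the background difference itself differed between the selected and the other Trpc4 neurons, 10 in the higher (0.0585%) and 11 in the lower direction (0.0644%) in the edgeR interaction test, in which 988 genes had an unadjusted p below 0.05. The count was 92 without nude, 52 without C57J 1, 11 without C57J 2, 65 without the predicted doublets, 8 after thinning and 5 with DESeq2. Fbn2 rose more in the selected neurons, since the other Trpc4 neurons went from 41.4 and 42.5 CPM to 106 and 97.2 CPM (difference of the log2 differences 1.70 ± 0.17). Il1rapl2, a synaptic adhesion gene, was at 206, 202, 268 and 517 CPM in the selected neurons against 590, 591, 514 and 772 CPM (0.77 ± 0.11). Inpp4b, a phosphoinositide phosphatase gene, rose from 142 and 178 CPM to 291 and 330 CPM in the selected neurons against 519 and 506 CPM to 597 and 591 CPM (0.74 ± 0.11). The adhesion genes Cntn4 and Pcdh10 rose more, by 0.55 and 0.66, and Pcdh9 fell more, by 0.61.

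Foxp2 fell more in the selected neurons (-1.72 ± 0.26, edgeR adjusted p 0.00026), and so did Adarb2 (-1.53 ± 0.25). Both rest on low counts in BALB/c, with 15 and 31 UMIs. Without the BALB/c library the Adarb2 difference was smaller and no longer called, as given further below. Nuclei chosen as oligodendrocytes had 214, 128, 80.2 and 62.2 CPM of Foxp2, above the selected neurons of every library and in the same order, and the part of free RNA in the difference was not tested. Without the predicted doublets the Foxp2 difference was -0.88 and no longer called (edgeR adjusted p 0.12).

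Nude and BALB/c mice differ by Foxn1, and with 1 library each their values are given side by side without a test. In the selected neurons of nude and BALB/c, Foxp2 was at 24.5 and 6.92 CPM, Adarb2 at 44.8 and 14.3, Il1rapl2 at 268 and 517, Cntn4 at 483 and 683, Fbn2 at 148 and 154, Glp1r at 29.7 and 37.8 and Cnr1 at 125 and 138 CPM. These genes were picked for display after their values were seen. Fbn2 and Cnr1 were close in both libraries, and Foxp2 and Adarb2 were lower and Il1rapl2 and Cntn4 higher in BALB/c.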

How the data were processed

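The deposited files hold raw UMI counts per gene and barcode for each of the 4 libraries, which the authors made with Cell Ranger 7.0.1 and the mm10 genome, per the submitters' processing notes. Totals were 102939576 UMIs for C57J 1, 72912922 for C57J 2, 82169638 for nude and 125998527 for BALB/c. Nuclei were filtered and selected by the rule given in the report, and the members and gene lists were chosen with earlier results of these data known. Trpc4 neurons had at least 2 Trpc4 UMIs and met the limits on Gad1, Gad2 and St18. Doublets were scored against simulated pairs of nuclei (scikit-learn 1.9.0), at an expected 0.8% for each 1000 barcodes, and kept in the main results.

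Counts were summed for each class and library, filtered for low counts, scaled by TMM and tested with the quasi-likelihood test of edgeR 4.0.16 in R 4.3.3, which was also tested on simulated data. Adjusted p-values are Benjamini-Hochberg values over all genes tested, and standard errors come from the same fit. Classes were compared with the library as a block, since both classes come from the same libraries, and the backgrounds as nude and BALB/c against C57J without one. Named genes were those of the rule, those the study names, the 10 largest rises and 10 largest falls with at least 20 CPM where higher and the same direction in every library (or no overlap of backgrounds), without predicted genes, and up to 4 called members of each list in each direction. A few named genes are not reported here. Some members of smaller change were added after their values were seen.

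Alternatives were DESeq2 1.42.0, upper-quartile scaling, no count filter, adjusted p alone, removal of predicted doublets, thinning to 2000 UMIs, other rules, no block and each library left out. Removing the limit of 6000 genes was chosen after seeing the data. Intervals are exact binomial and cover counting error only.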

Additional observations from a re-analysis of the deposited data

Results flagged for a closer look

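In 21 genes the difference between the C57J and the BALB/c-background libraries was not the same in the selected and the other Trpc4 neurons, by the edgeR interaction test, and 18 of them fell under the rule for named genes. The values are differences of 2 log2 differences, selected minus other. Above 0 were Fbn2 (1.70), Tll1 (1.18), Ndst3 (0.89), Dach1 (0.86), Il1rapl2 (0.77), Inpp4b (0.74), Pcdh10 (0.66), Ptprk (0.57), Cntn4 (0.55) and Galntl6 (0.53). Below 0 were Foxp2 (-1.72), Adarb2 (-1.53), Fbxl7 (-1.05), Rtn4rl1 (-0.97), Luzp2 (-0.67), Pcdh9 (-0.61), Spon1 (-0.60) and Srgap1 (-0.57). Of these 18, 13 were no longer called with DESeq2, 13 after thinning, 10 without C57J 2, 9 without BALB/c and 6 without C57J 1. Fbn2 and Il1rapl2 were called in each alternative run. Without the BALB/c library Adarb2 was at -0.70 (edgeR adjusted p 0.0985) and no longer called.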

How the results depend on the processing

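Against the Cpa6-only, Col15a1-only and other Trpc4 neurons, 1914, 1251 and 3076 genes passed the adjusted p alone and 459, 350 and 935 passed after thinning to 2000 UMIs. DESeq2 called 575 and 346 genes against the first and second class, and without the library block 466 and 236 were called. Leaving out 1 library gave 728 to 890, 478 to 602 and 1436 to 1664 genes. Between backgrounds DESeq2 called 42 genes, no filter on low counts 329, thinning 9 and the stricter rule 54, and leaving out 1 library gave 150 to 289, the highest without nude. After thinning 66.7% of these calls were higher, against 45.8% before. For the difference between classes, DESeq2 called 5, no filter 47, removal of doublets 65 and thinning 8, and leaving out 1 library gave 11 to 92, with 52 without C57J 1, 11 without C57J 2 and 92 without nude. Removing doublets raised the higher share of those from 47.6% to 63.1%.

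Of the named genes, none that was called reversed under these alternatives. Genes that were not called did, and the cause was not tested. Between backgrounds these were Sall3 without doublets (0.074) and Sst after thinning (-0.019). Leaving out 1 library there gave -0.11 to 0.26 for Cnr1, -0.33 to 0.13 for Col6a3, -0.32 to 0.59 for Ddr2, -0.14 to 0.11 for Sall3 and -0.16 to 0.48 for Sst. Against the Cpa6-only neurons Otx2os1 went to -0.019 with DESeq2, -0.068 after thinning and -0.25 to 0.22 with 1 library left out. Against the Col15a1-only neurons Cnr1 went to -0.015 without the filter and -0.0035 without the replicate block. Leaving out 1 library there gave -0.068 to 0.079 for Cnr1, -0.0059 to 0.20 for Glp1r and -0.18 to 0.073 for Otx2os1. Against the other Trpc4 neurons Otx2os1 went to -0.0096 with DESeq2, -0.24 after thinning, -0.17 under the stricter rule and -0.25 to 0.21 with 1 library left out, and Sall3 to -0.067 to 0.15. Between backgrounds many calls did not hold. Of the 120 genes called there, 42 were also called with DESeq2 and 8 after thinning. Of the named genes, 17 became weaker and 23 stayed the same with DESeq2. After thinning 13 became weaker, 7 stayed the same and 1 reversed. Those that stayed the same include genes called in neither run, so they are not all calls that held. The calls of Foxp2 and Glp1r were among those lost in both, that of Foxp2 also without doublets and that of Glp1r under the stricter rule.

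Relative to C57J, the log2 ratio of the share was -1.11 for nude and -2.07 for BALB/c after thinning, and -0.063 for BALB/c under the stricter rule. Leaving out 1 C57J library gave 0.02 to 0.12 for nude and -0.42 to -0.32 for BALB/c. Leaving out any 1 library leaves a background with 1 library, which is then assumed to vary like the other. Libraries were not paired by replicate number, which ties no mice or batches together here. Batch 1 holds C57J 1 alone, so the comparison within batch 2 is the one that leaves out C57J 1. Depth limits genes under a few CPM in sums of at most 2169166 UMIs.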
